A study of Mus musculus with 11 samples.

Results

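Laminins and the basement membrane glycoproteins that bind them are described here in mouse embryonic stem (ES) cells kept in 3 culture media. The members are 10 genes: the laminin chain genes Lama1, Lama5, Lamb1, Lamb2 and Lamc1, the nidogen genes Nid1 and Nid2, the proteoglycan genes Hspg2 and Agrn, and Sparc. They were found by matching the RefSeq accession of each array probe to a gene symbol, and all 10 passed the filter on dim probes, of 16279 genes tested in all. Together they had 15 probes, of which all 15 passed, of 21274 named probes. RNA was measured on 11 Agilent one-colour arrays, 1 for each sample: 5 of cells in 2i/LIF, 3 of cells in KOSR/LIF and 3 of cells in serum/LIF. Every culture held leukaemia inhibitory factor (LIF), the cytokine that keeps mouse ES cells self-renewing. KOSR stands for a serum replacement of defined make-up, while 2i is a pair of kinase inhibitors that act on MEK and on GSK3. All cells were unsorted, from the 129/Ola background and from the lines E14, HVJu5.1 and HVJu9.3, and had spent at least 3 passages in their medium, per the labels. For 2i/LIF replicates 1 to 4 the title and the source name give different lines. KOSR/LIF and serum/LIF each hold 1 array of each line, by title and by source name, so their scatter includes differences between lines. The labels do not say if 2i/LIF samples of 1 line came from separate cultures. The p-values therefore cover no more than the scatter among these arrays, which in 2i/LIF may be technical.

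A basement membrane is a thin sheet of extracellular matrix on which epithelia sit, and it is among the earliest matrices a mouse embryo builds. Each laminin molecule joins an alpha, a beta and a gamma chain inside the cell before secretion. The secreted molecules polymerise on the cell surface, where integrins and dystroglycan bind them. Nidogens bridge the laminin sheet to the collagen IV network. Perlecan (Hspg2) and agrin (Agrn) carry heparan sulfate chains that hold growth factors, and SPARC is a collagen-binding protein of the matrix that is abundant in parietal endoderm.

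KOSR/LIF replicate 3 stood apart in signal. It had 43.7% of its probes flagged well above background, and the other 10 arrays had 53.7% to 72.6%. Its 75th percentile of processed intensity, 65.3, also lay under the 176 to 538 of the rest, and each member's log2 fold change in a comparison with KOSR/LIF arrays is given with and without it. All 10 ES cell marker genes on the list, among them Pou5f1, were well above background on all 11 arrays. The arrays were hybridised on 5 slides and scanned on 3 days. Only the first day, whose arrays also share slide 1, held arrays of all 3 media (2 of each). The third day held 2 arrays of 2i/LIF and 1 of serum/LIF, and the second held 1 of 2i/LIF and 1 of KOSR/LIF, which allow no test. Levels below are log2 of the processed intensity minus the 75th percentile of the array, and they are compared between media for a probe, never between probes. Bulk RNA cannot tell fewer cells that express a gene from less of its RNA in each cell.

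Lamb1, Nid1 and Hspg2 are the members that passed the test in 2i/LIF against serum/LIF, the first comparison below. The 250 bases before the start of each are shown so that the regions can be set beside their values. The sequences are those of RefSeq on build GRCm38.p6, 5′ to 3′ on the strand of the gene, and capitals mark the GC box GGGCGG on either strand. The windows lie at chr12:31265043-31265292 on the plus strand, chr13:13437352-13437601 on the plus strand and chr4:137468553-137468802 on the plus strand, all upstream of the transcript.
Lamb1: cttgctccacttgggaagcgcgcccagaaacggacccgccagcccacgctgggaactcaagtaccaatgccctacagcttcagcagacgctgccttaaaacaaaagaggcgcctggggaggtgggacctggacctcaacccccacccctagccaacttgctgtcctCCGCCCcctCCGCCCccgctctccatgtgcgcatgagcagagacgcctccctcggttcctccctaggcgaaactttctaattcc
Nid1: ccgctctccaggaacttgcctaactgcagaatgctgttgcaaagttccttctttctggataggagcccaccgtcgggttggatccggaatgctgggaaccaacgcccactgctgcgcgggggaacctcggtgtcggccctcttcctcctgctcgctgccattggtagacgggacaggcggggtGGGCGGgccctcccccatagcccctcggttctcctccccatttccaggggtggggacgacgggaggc
Hspg2: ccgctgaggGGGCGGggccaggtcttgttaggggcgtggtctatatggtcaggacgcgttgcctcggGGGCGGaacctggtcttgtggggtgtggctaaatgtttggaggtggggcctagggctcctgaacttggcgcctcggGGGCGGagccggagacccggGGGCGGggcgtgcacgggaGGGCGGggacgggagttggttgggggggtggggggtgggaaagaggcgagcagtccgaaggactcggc
The GC box occurs 2 times in the Lamb1 window, 1 time in that of Nid1 and 5 times in that of Hspg2. The window of Lamb2, which passed in 2i/LIF against KOSR/LIF, held no GC box and was 43.6% G or C. Over 8 windows of the 7 members with an entry (Agrn has 2), 6 held a GC box. The share was 32.7% of 32851 RefSeq windows of the same length, which were not matched for G or C content. The windows were 62.0%, 64.4% and 70.0% G or C for Lamb1, Nid1 and Hspg2, and the median of all windows was 52.4%. Searched on both strands, none of the 8 windows held the TATA box (TATAAA, 12.4% of all windows), the AP-1 site (TGANTCA, 6.75%), the TCF/LEF core (CTTTGAT, 3.21%), the GATA site (AGATAA, 9.99%) or the CArG box (1.47%). The ETS core (CCGGAA) matched in 1 of the 8, that of Nid1, against 12.03% of all windows. No match overlaps another in the windows of Lamb1, Nid1 and Hspg2. A match is a string of letters and says nothing of binding.

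The first comparison asks which basement membrane genes differ between cells in 2i/LIF and cells in serum/LIF. The laminin beta chain gene Lamb1 was 9.54-fold lower in 2i/LIF and the perlecan gene Hspg2 2.76-fold lower, and the nidogen gene Nid1 was 3.88-fold higher. The other 7 members did not pass. By limma's moderated test with Benjamini-Hochberg adjustment over all 16279 genes, 1 of 10 members was called higher and 2 lower at an adjusted p below 0.05. Over all genes 6.74% were called higher and 9.98% lower, and with 10 genes the members' counts are not read as particular to them. The median log2 fold change of the members was 0.04, beside 0.03 over all genes.

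**Figure D1:**
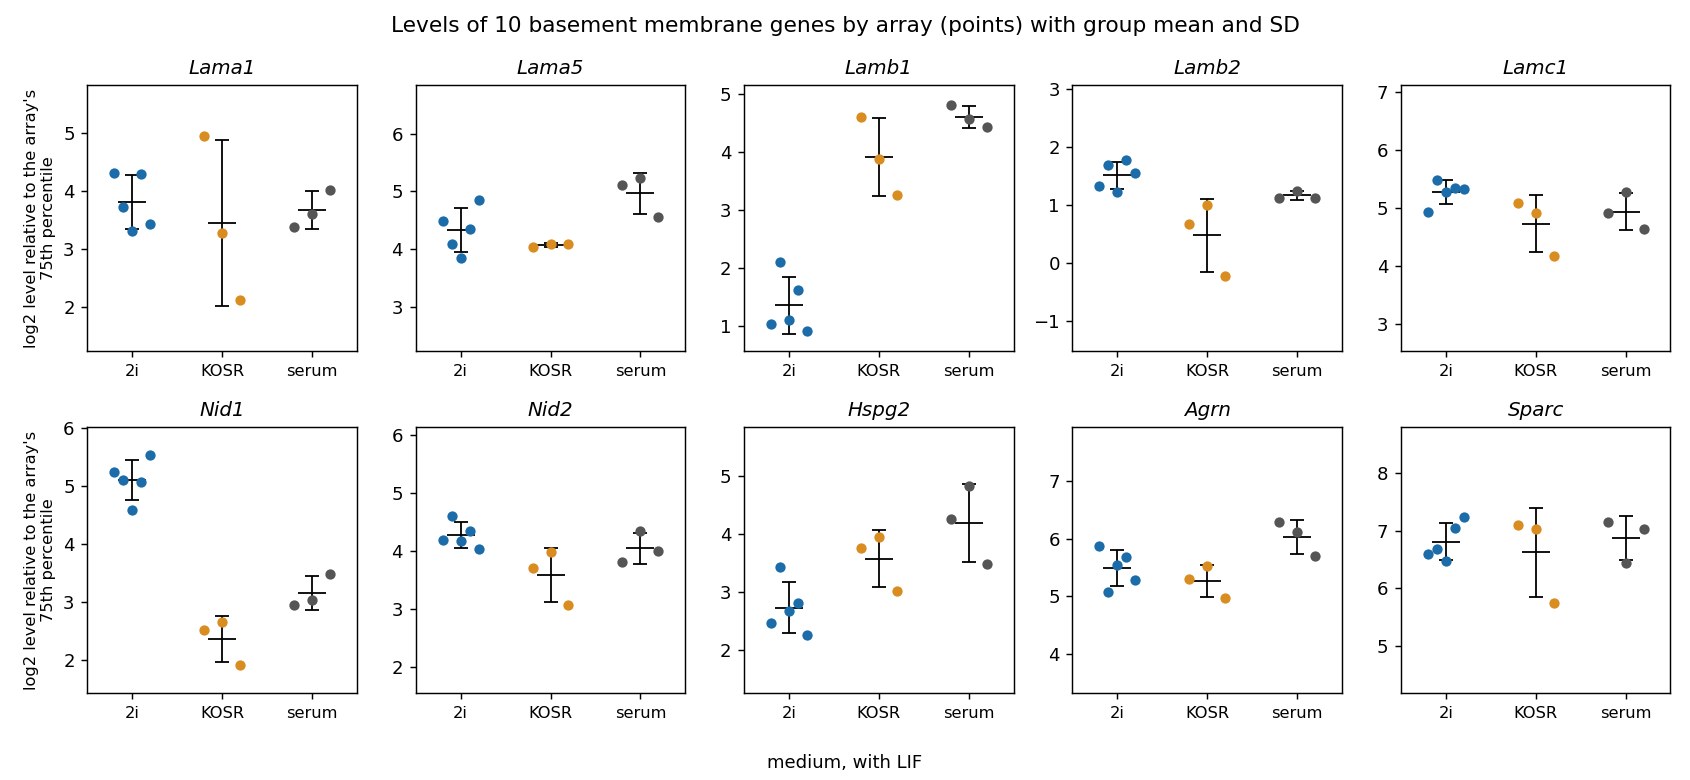
Log2 level relative to the array's 75th percentile (y axis) of each of 10 genes in 2i/LIF (5 arrays), KOSR/LIF (3) and serum/LIF (3); points are arrays, and bars give the group mean and SD. Every panel spans the same number of log2 units. Lamb1 lay at 0.91 to 2.09 in 2i/LIF, against 4.43 to 4.80 in serum/LIF, and Nid1 at 4.59 to 5.54 in 2i/LIF, against 2.95 to 3.49 in serum/LIF.

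Among the beta chains, Lamb1 encodes the partner found in the laminins of the early embryo, and its single probe read 1.03, 2.09, 1.103, 1.61 and 0.91 in 2i/LIF replicates 1 to 5. The same probe read 4.61, 3.89 and 3.27 in KOSR/LIF and 4.80, 4.57 and 4.43 in serum/LIF. All 5 arrays of 2i/LIF lay below all 6 of the other media. The log2 fold change in 2i/LIF against serum/LIF was -3.25 ± 0.34 (SE, adjusted p = 7.24e-05). It was -3.33 within the first scan day, -3.46 within the third and -3.35 with slide as a block, and all 26 alternatives kept the call (-3.46 to -3.00). Lamb2 encodes the other common beta chain, known from the neuromuscular junction and the kidney filter. It read 1.34, 1.70, 1.23, 1.78 and 1.56 in 2i/LIF, 0.67, 1.00 and -0.22 in KOSR/LIF, and 1.13, 1.25 and 1.13 in serum/LIF. The arrays of 2i/LIF and serum/LIF overlapped narrowly, and the difference of 0.35 ± 0.27 did not pass (adjusted p = 0.498, 95% interval -0.25 to 0.95).

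The alpha chain genes did not pass. Lama1 encodes the alpha chain of the first laminin made by the embryo. Its levels were 4.31, 3.72, 3.31, 4.29 and 3.43 in 2i/LIF, 4.95, 3.27 and 2.11 in KOSR/LIF, and 3.37, 3.61 and 4.02 in serum/LIF. The 3 arrays of KOSR/LIF held both the highest and the lowest level of all 11, with an SD of 1.43, against 0.47 in 2i/LIF and 0.33 in serum/LIF. The difference in 2i/LIF against serum/LIF was 0.15 ± 0.52, with a 95% interval of -0.98 to 1.28. Lama5 encodes the alpha chain of a laminin that ES cells adhere to through integrins. It read 4.49, 4.10, 3.85, 4.36 and 4.85 in 2i/LIF, 4.03, 4.10 and 4.10 in KOSR/LIF, and 5.105, 5.23 and 4.56 in serum/LIF. Of the 5 arrays of 2i/LIF, 4 lay below all 3 of serum/LIF, and the difference of -0.63 ± 0.26 did not pass (adjusted p = 0.130). Within the first scan day it was -1.06 (adjusted p = 0.0353) and within the third it was 0.11.

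Lamc1 encodes the gamma chain that most laminins share. Its levels were 4.93, 5.48, 5.29, 5.35 and 5.34 in 2i/LIF, 5.098, 4.92 and 4.18 in KOSR/LIF, and 4.91, 5.28 and 4.64 in serum/LIF. The media overlapped, and the difference in 2i/LIF against serum/LIF was 0.34 ± 0.26 (95% interval -0.23 to 0.90), and it did not pass. That interval leaves out any fall of the size measured for Lamb1.

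**Figure D2:**
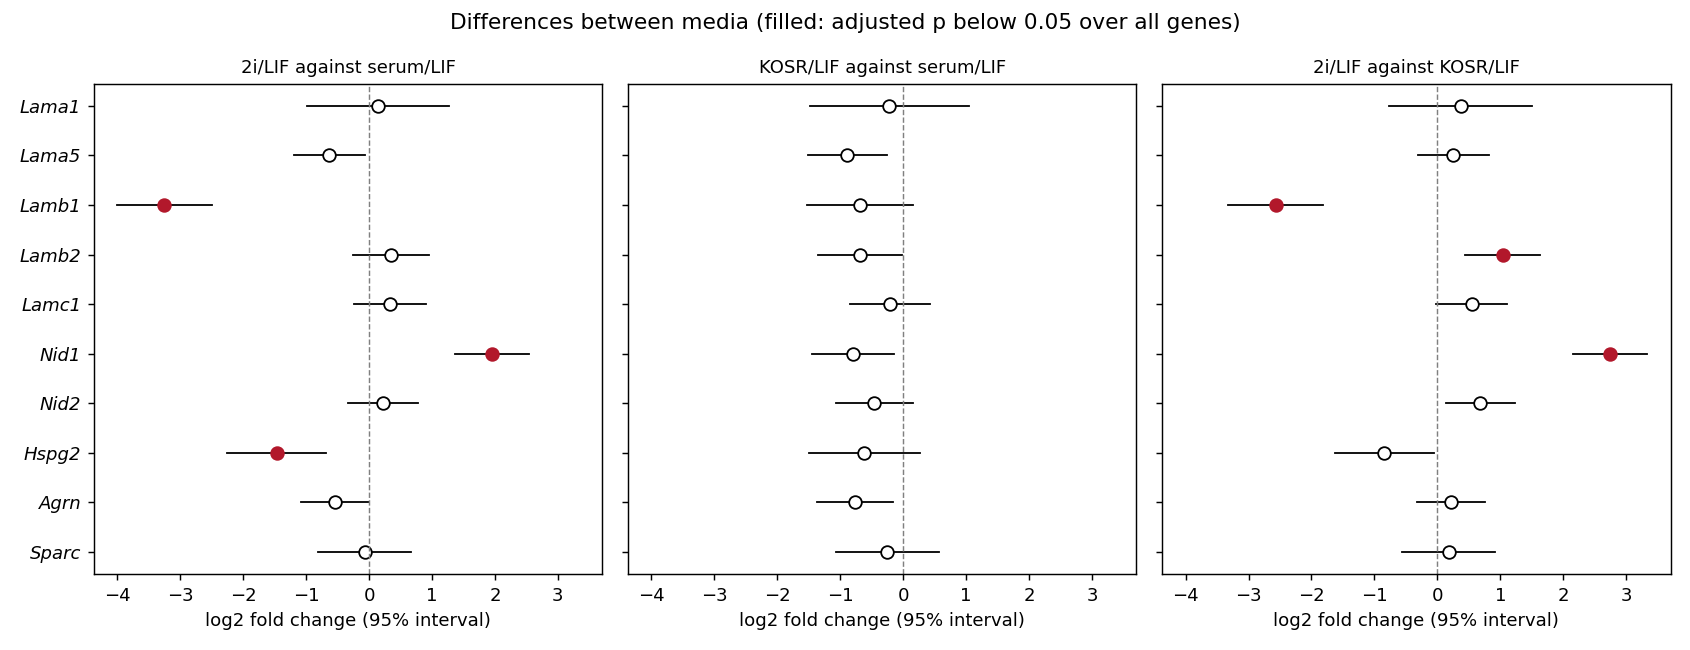
Log2 fold change (x axis, with 95% interval) of each member (y axis) in 2i/LIF against serum/LIF, KOSR/LIF against serum/LIF and 2i/LIF against KOSR/LIF, from limma over all 11 arrays; filled points have an adjusted p below 0.05 over all genes. The filled points are Lamb1, Nid1 and Hspg2 in the first comparison, none in the second, and Lamb1, Lamb2 and Nid1 in the third.

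Nidogen 1, the product of Nid1, binds the gamma chain that Lamc1 encodes, and its gene was the member that rose. The brightest Nid1 probe read 5.24, 5.099, 4.59, 5.07 and 5.54 in 2i/LIF, 2.51, 2.66 and 1.91 in KOSR/LIF, and 2.95, 3.03 and 3.49 in serum/LIF. All 5 arrays of 2i/LIF lay above all 6 others. The log2 fold change in 2i/LIF against serum/LIF was 1.96 ± 0.27 (adjusted p = 0.000411). It was 1.85 within the first scan day and 1.82 with slide as a block, and within the third scan day it was 1.90 with an adjusted p of 0.0549, the only one of 26 alternatives without the call. Both dimmer Nid1 probes also passed, at 2.67 ± 0.42 and 2.02 ± 0.32, with no overlap between the arrays of these media. The dimmest was well above background on 5 of 5 arrays of 2i/LIF, 0 of 3 of KOSR/LIF and 2 of 3 of serum/LIF. Nid2 encodes nidogen 2, a second nidogen with overlapping function. It read 4.20, 4.61, 4.18, 4.35 and 4.03 in 2i/LIF, 3.71, 3.98 and 3.08 in KOSR/LIF, and 3.82, 4.34 and 4.00 in serum/LIF. The 2i/LIF and serum/LIF arrays overlapped, and the difference was 0.22 ± 0.25 (adjusted p = 0.674).

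**Figure D3:**
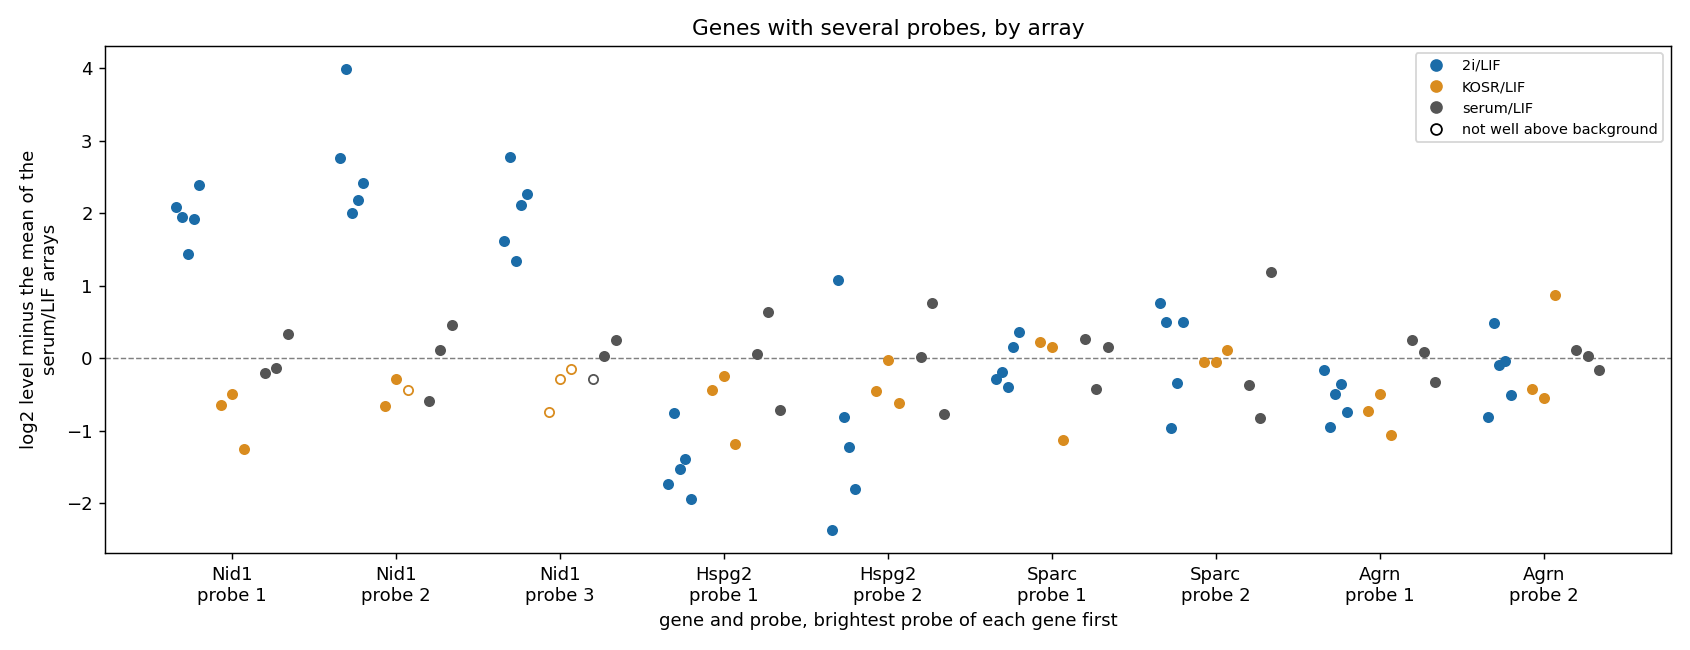
Log2 level minus the mean of the serum/LIF arrays (y axis) for each probe of the 4 members with several probes (x axis, brightest first); points are arrays of 2i/LIF, KOSR/LIF and serum/LIF, and open points were not well above background. All 3 Nid1 probes stand higher in 2i/LIF, and for the dimmer Hspg2 probe 2i/LIF and serum/LIF overlap.

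Both proteoglycan genes had negative differences in 2i/LIF against serum/LIF, and Hspg2 passed. The brighter Hspg2 probe read 2.47, 3.44, 2.68, 2.82 and 2.27 in 2i/LIF, 3.76, 3.96 and 3.02 in KOSR/LIF, and 4.26, 4.84 and 3.49 in serum/LIF. The highest 2i/LIF array lay just below the lowest serum/LIF array. The log2 fold change was -1.47 ± 0.36 (adjusted p = 0.0145). Leaving out serum/LIF replicate 1 (-1.43, adjusted p = 0.0610) or serum/LIF replicate 2 (-1.14, adjusted p = 0.0863) ended the call, as did keeping to arrays of the third scan day (-1.12, adjusted p = 0.181), and within the first scan day it was -1.81 (adjusted p = 0.0103). The dimmer Hspg2 probe differed by -1.02 ± 0.64 and did not pass (adjusted p = 0.369), with 2i/LIF replicate 2 the highest of all 11 arrays at 0.14. Agrin organises receptors at the neuromuscular junction and is also a general basement membrane component. The brighter Agrn probe read 5.87, 5.08, 5.54, 5.68 and 5.29 in 2i/LIF, 5.30, 5.53 and 4.98 in KOSR/LIF, and 6.28, 6.11 and 5.70 in serum/LIF. The difference was -0.54 ± 0.25 (adjusted p = 0.190), and the other Agrn probe gave -0.19 ± 0.36. By probe, 5 of the 15 member probes were called in 2i/LIF against serum/LIF, beside 15.9% of all named probes, and 3 of the 5 read the same gene, Nid1.

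No difference in Sparc passed the test in any comparison. Its brighter probe read 6.59, 6.69, 6.48, 7.04 and 7.24 in 2i/LIF, 7.10, 7.02 and 5.74 in KOSR/LIF, and 7.14, 6.45 and 7.03 in serum/LIF. The media overlapped, and the difference in 2i/LIF against serum/LIF was -0.07 ± 0.34 (95% interval -0.80 to 0.67). The dimmer probe gave 0.09 ± 0.48.

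The second comparison asks how cells in KOSR/LIF differ from cells in serum/LIF. None of the 10 members passed by limma, and over all genes 2.37% were called higher and 2.21% lower. An unadjusted p below 0.05 was found for 4 of 10 members, beside 18.7% of all genes. All 10 log2 fold changes were negative, from -0.89 to -0.21, with a median of -0.65, beside -0.03 over all genes. Without KOSR/LIF replicate 3 the estimates of Lama1 (0.44), Lamc1 (0.07) and Sparc (0.19) were positive, 7 were negative and the median was -0.34. The values that came nearest to the threshold were those of Lama5 (-0.89 ± 0.29, adjusted p = 0.115), Agrn (-0.76 ± 0.28, adjusted p = 0.159) and Nid1 (-0.80 ± 0.30, adjusted p = 0.174). Without KOSR/LIF replicate 3 these were -0.90, -0.61 and -0.57. In 4 of 10 members, these 3 and Lamb2 (-0.69 ± 0.31), the arrays of KOSR/LIF all lay below those of serum/LIF, as they did in 16% of all genes. Lamb1 differed by -0.68 ± 0.38 (adjusted p = 0.374) and Hspg2 by -0.62 ± 0.40 (adjusted p = 0.450). The differences of Lama1, Lamc1, Nid2 and Sparc were -0.22, -0.21, -0.46 and -0.25. Leaving out KOSR/LIF replicate 3 moved Lamb1 to -0.36, Lamb2 to -0.33, Hspg2 to -0.34 and Nid2 to -0.20. By probe, none of the 15 member probes passed, beside 4.13% of all named probes. For the dimmer probes of Agrn (-0.03 ± 0.41) and Nid1 (-0.46 ± 0.47 and -0.39 ± 0.36) the arrays of KOSR/LIF and serum/LIF overlapped.

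The third comparison sets 2i/LIF against KOSR/LIF. It shares its arrays with the comparisons above, so its values stand beside theirs and are no separate evidence. Nid1 was 6.73-fold higher in 2i/LIF (log2 fold change 2.75 ± 0.27, adjusted p = 7.44e-05) and Lamb2 2.05-fold higher (1.04 ± 0.27, adjusted p = 0.0253), and Lamb1 was 5.94-fold lower (-2.57 ± 0.34, adjusted p = 0.000499). Thus 2 members were called higher and 1 lower, beside 5.95% and 8.72% of all genes, and the members' median was 0.31, beside 0.02 over all genes. That median was 0.17 without KOSR/LIF replicate 3, with 6 estimates above 0 and 4 below, against 8 above and 2 below with it. Without KOSR/LIF replicate 3, Nid1 stood at 2.53 (adjusted p = 0.000363) and Lamb1 at -2.90 (adjusted p = 0.000615), and Lamb2 at 0.68 with its call lost (adjusted p = 0.0696). The call on Lamb2 was also lost without KOSR/LIF replicate 1 (1.13, adjusted p = 0.0514), without 2i/LIF replicate 4 (0.97, adjusted p = 0.0581) and within the first scan day (0.67, adjusted p = 0.160). Within that day Lamb1 was at -2.89 and Nid1 at 2.25, both called.

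The other 7 members did not pass in 2i/LIF against KOSR/LIF. For Nid2 the 5 arrays of 2i/LIF lay above the 3 of KOSR/LIF, with a difference of 0.68 ± 0.25 (adjusted p = 0.0983), and 0.43 without KOSR/LIF replicate 3. Hspg2 differed by -0.84 ± 0.36 (adjusted p = 0.153) and, within the first scan day, by -1.11 (adjusted p = 0.0445), and by -1.13 (adjusted p = 0.0904) without KOSR/LIF replicate 3. Lamc1 differed by 0.55 ± 0.26 (adjusted p = 0.204), and by 0.27 without KOSR/LIF replicate 3. Lama1, Lama5, Agrn and Sparc differed by 0.37, 0.25, 0.22 and 0.18. Without KOSR/LIF replicate 3 Lama1 was at -0.30 and Sparc at -0.26, so that their signs turned, and Lama5 was at 0.26 and Agrn at 0.0778. By probe, 5 of 15 passed, beside 13.6% of all named probes. These were the probes of Lamb1 and Lamb2 and the 3 of Nid1. The brighter Nid1 probes had log2 fold changes of 2.75 and 3.13. The dimmest, which no KOSR/LIF array read well above background, was at least 3.00-fold higher in 2i/LIF as a linear fold.

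**Figure D4:**
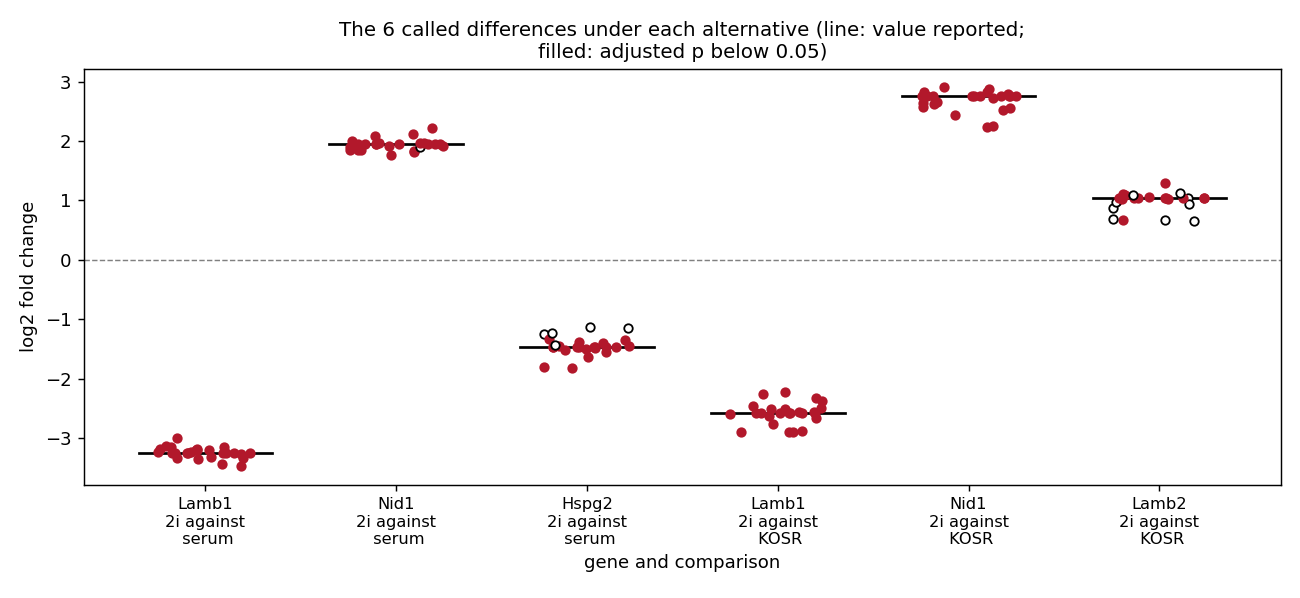
Log2 fold change (y axis) of the 6 called member differences (x axis) under each alternative processing; the line is the value reported, and filled points have an adjusted p below 0.05. Lamb1 stays called throughout in both comparisons and Nid1 in 2i/LIF against KOSR/LIF, and open points lie among those of Hspg2 and Lamb2 and in 1 case of Nid1.

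Partner chains were also compared within each array, where scaling cancels. A difference between 2 probes has no meaning as a level, so the change of that difference between media is what was tested. Lamb1 minus Lamb2 averaged -0.17 ± 0.38 in 2i/LIF (SD, n = 5), 3.44 ± 0.53 in KOSR/LIF and 3.43 ± 0.21 in serum/LIF (SD, n = 3 each). Its change was -3.60 in 2i/LIF against serum/LIF and -3.61 in 2i/LIF against KOSR/LIF, with no overlap of arrays in either. Nid1 minus Nid2 averaged 0.83 ± 0.45 in 2i/LIF, -1.23 ± 0.08 in KOSR/LIF and -0.90 ± 0.40 in serum/LIF, a change of 1.73 and of 2.07 in the same comparisons. In each of these 4 the two-sided exact permutation p was 0.0357, the smallest that 5 against 3 arrays allow, and the value adjusted over 9 tests was 0.0804, above the threshold. Lama1 minus Lama5 changed by 0.78 in 2i/LIF against serum/LIF (exact permutation p = 0.0714, adjusted 0.129). In KOSR/LIF against serum/LIF, where 3 against 3 arrays cannot go below 0.1, the changes were 0.67, 0.00 and -0.34 for the alpha chains, beta chains and nidogens, with exact permutation p of 0.7, 1 and 0.3. Without KOSR/LIF replicate 3 Lama1 minus Lama5 changed by 1.34 in KOSR/LIF against serum/LIF and by -0.56 in 2i/LIF against KOSR/LIF, where the value with it was 0.12.

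**Figure D5:**
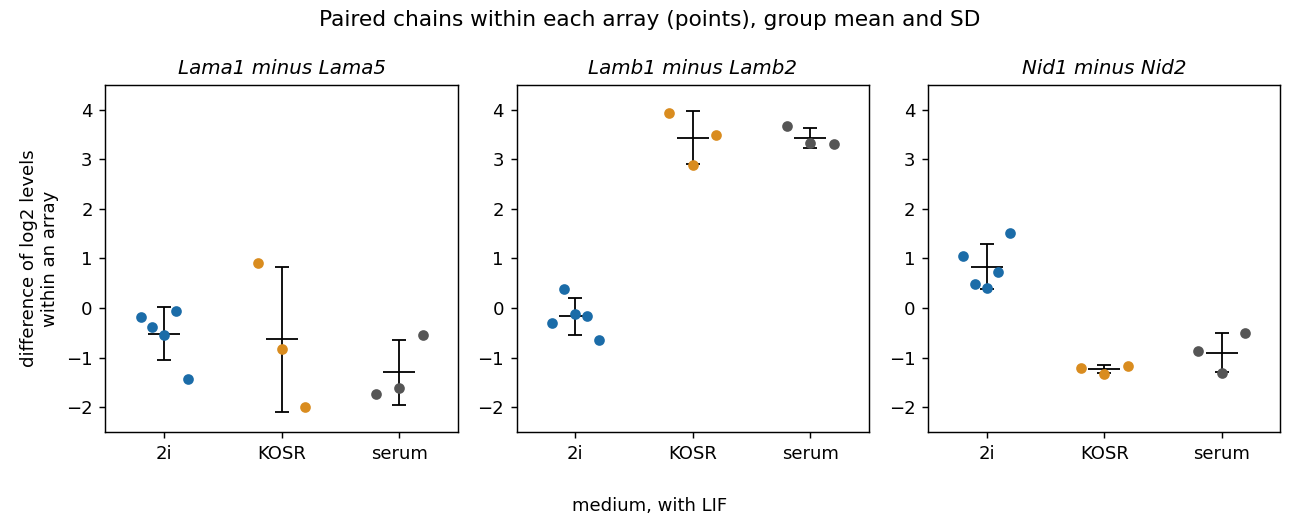
Difference of log2 levels within an array (y axis) of Lama1 minus Lama5, Lamb1 minus Lamb2 and Nid1 minus Nid2, in 2i/LIF (5 arrays), KOSR/LIF (3) and serum/LIF (3); points are arrays, and bars give the group mean and SD. Lamb1 minus Lamb2 lies between -0.65 and 0.39 in 2i/LIF, against 3.31 to 3.67 in serum/LIF.

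The order of the media differed between members. For Nid1 it ran 2i/LIF, serum/LIF, KOSR/LIF from high to low, and the step from serum/LIF to KOSR/LIF did not pass. For Lamb1 and Hspg2 it ran serum/LIF, KOSR/LIF, 2i/LIF, with the upper step not past the threshold for either gene and the lower one not for Hspg2. Lamb2, Lamc1 and Nid2 averaged highest in 2i/LIF and lowest in KOSR/LIF, and of their 9 differences only that of Lamb2 between 2i/LIF and KOSR/LIF passed. Lama5 and Agrn averaged highest in serum/LIF and lowest in KOSR/LIF, with no step passing. Lama1 and Sparc overlapped between all 3 media. As a description over 11 arrays that share media and scan days, the genes whose levels ran most like those of Lamb1 were Tent5a (Pearson's r = 0.975), Gramd3 (0.974) and Ap1s3 (0.973). For Lamc1 they were Nckipsd (0.975), Spc24 (0.967) and N4bp1 (0.959), for Sparc Rexo1 (0.975), Fxyd3 (0.920) and Ddah1 (0.918), and for Lama1 Eif2s3x (0.884), Gphb5 (0.878) and Tmod3 (0.862).

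Counts in the lists that follow, also under Other observations, stand beside the shares of all genes called. In 2i/LIF against serum/LIF 6.74% were higher and 9.98% lower, and in KOSR/LIF against serum/LIF 2.37% and 2.21%. In 2i/LIF against KOSR/LIF the shares were 5.95% and 8.72%. The lists were not tested as sets. Among 6 other laminin chain genes, all measured, the median log2 fold change in 2i/LIF against serum/LIF was -0.37, beside 0.03 over all genes. In that comparison 2 of them fell and none rose. They were Lamb3, the beta chain of epithelial anchoring laminin (-3.31 ± 0.43), and Lama4, a chain of vessel wall laminin (-3.14 ± 0.46, well above background on 1 of 5 arrays of 2i/LIF). Lamb3 also fell in KOSR/LIF against serum/LIF (-2.91 ± 0.48, with 1 of 3 KOSR/LIF arrays above the background flag), and without KOSR/LIF replicate 3 it stood at -3.54. Lama4 was lower in 2i/LIF than in KOSR/LIF (-1.95 ± 0.46), though just 1 array in each medium read it well above background. The call on Lama4 was lost without KOSR/LIF replicate 2.

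Collagen IV forms the network that nidogens tie to laminin. Of 5 measured chains, 3 fell in 2i/LIF against serum/LIF and none rose (median -2.46), among them Col4a1 (-4.28 ± 0.69) and Col4a2 (-3.44 ± 0.45). Against KOSR/LIF 3 fell, with Col4a1 at -4.71 ± 0.69, and none passed in KOSR/LIF against serum/LIF (Col4a1 0.43 ± 0.77, and 1.31 without KOSR/LIF replicate 3). Of 16 measured other matrix glycoproteins, 2 rose and 5 fell in 2i/LIF against serum/LIF (median -0.19). Pxdn, the peroxidase that crosslinks collagen IV, had the largest fall of these (-5.85 ± 0.34), and it was at -5.16 ± 0.34 in 2i/LIF against KOSR/LIF. Fras1, an anchor of embryonic epithelia, was at least 8.31-fold lower than in serum/LIF. Sparcl1, a relative of Sparc, rose (4.05 ± 0.54, with 1 of 3 serum/LIF arrays above the background flag), as did the laminin-binding Fbln1 (1.39 ± 0.30). Against KOSR/LIF 2 of the 16 rose in 2i/LIF, Fbln1 (1.67 ± 0.30) and the fibronectin gene Fn1 (0.84 ± 0.22, a call lost in 11 of 25 alternatives, among them that without KOSR/LIF replicate 3), and 5 fell, or 3 without KOSR/LIF replicate 1 or without KOSR/LIF replicate 2. In KOSR/LIF against serum/LIF 1 rose, Sparcl1 (2.54 ± 0.61, with 2 of 3 KOSR/LIF and 1 of 3 serum/LIF arrays above the background flag, a call lost in 14 of 26 alternatives), and none fell.

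Of 21 measured matrix receptors, 5 fell in 2i/LIF against serum/LIF and none rose (median -0.65), or 3 fell without serum/LIF replicate 3. The largest falls were those of Itga9, an integrin alpha chain (-4.22 ± 0.34), and Ddr1, a collagen receptor kinase (-2.40 ± 0.25). Itga6 and Itgb1, which together form a laminin receptor, differed by -0.74 ± 0.25 (adjusted p = 0.0705) and -0.65 ± 0.31 (adjusted p = 0.217), and the dystroglycan gene Dag1 by -0.23 ± 0.52. Ddr1 also fell in KOSR/LIF against serum/LIF (-1.77 ± 0.28). The other receptor gene that did was Gpc4, a glypican (-0.91 ± 0.23), a call lost in 19 of 26 alternatives. In 2i/LIF against KOSR/LIF 2 rose, the integrin genes Itgav (1.39 ± 0.32) and Itgb5 (0.86 ± 0.26, lost in 17 of 25 alternatives, among them that without KOSR/LIF replicate 3), and 3 fell, with Itga9 at -3.55 ± 0.34. The number that fell there was 1 without KOSR/LIF replicate 1 or without KOSR/LIF replicate 2, and 5 without KOSR/LIF replicate 3 or without 2i/LIF replicate 2. Of 14 measured matrix proteases and inhibitors, 1 rose and 6 fell in 2i/LIF against serum/LIF (median -1.14). The protease gene Adamts1 was at least 21.3-fold lower and the inhibitor gene Timp3 fell by 4.77 ± 0.57 (well above background on 1 of 5 arrays of 2i/LIF), and Timp1 rose by 0.84 ± 0.25, a call lost in 16 of 26 alternatives. Timp1 also rose in 2i/LIF against KOSR/LIF (1.11 ± 0.25), where 8 fell. In KOSR/LIF against serum/LIF Adamts1 fell (-2.37 ± 0.41) and 2 rose, Hpse, the enzyme that cuts heparan sulfate (2.88 ± 0.46), and Mmp9 (1.63 ± 0.41, lost in 19 of 25 alternatives). Each of these 2 was above the background flag on 2 of 3 KOSR/LIF and 1 of 3 serum/LIF arrays.

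Markers of other cell types that make basement membrane moved with some of these differences. Of 19 measured primitive and parietal endoderm markers, 7 fell in 2i/LIF against serum/LIF and none rose, and 13 were lower (8 without KOSR/LIF replicate 1) and 1 higher in 2i/LIF than in KOSR/LIF. In KOSR/LIF against serum/LIF 2 were higher and 1 lower, or 5 higher without KOSR/LIF replicate 3 and none higher without serum/LIF replicate 1. Their summed level, as multiples of the array's 75th percentile, was 4.35 to 6.09 in 2i/LIF, 11.04 to 34.8 in KOSR/LIF and 21.8 to 34.8 in serum/LIF. Krt19, a keratin gene, made up 9.12 to 24.04 of the serum/LIF sums, and the other 18 markers summed to 4.11 to 4.64 in 2i/LIF, 10.2 to 31.6 in KOSR/LIF and 10.8 to 15.0 in serum/LIF. Ttr and Apoa1 were not well above background on any array. Gata4, a regulator of primitive endoderm, was higher in KOSR/LIF than in serum/LIF (2.16 ± 0.38) and lower in 2i/LIF than in KOSR/LIF (-2.14 ± 0.34). The marker Fst went the other way in both, at -1.90 ± 0.31 in KOSR/LIF against serum/LIF and 2.22 ± 0.27 in 2i/LIF against KOSR/LIF. Among the markers that did not pass in 2i/LIF against serum/LIF were Gata4 (0.02 ± 0.34) and the transcription factor gene Sox17 (0.07 ± 0.47). The receptor gene Pdgfra (0.48 ± 0.84) and Gata6 (-0.75 ± 0.98) did not pass either. Sox17 and Gata6 were each well above background on 3 of 5 arrays of 2i/LIF and 2 of 3 of serum/LIF. Pdgfra was so on 2 of 5 and 1 of 3, and the differences of these dim genes are uncertain. Gata6, a relative of Gata4, differed by 3.49 ± 1.095 in KOSR/LIF against serum/LIF (adjusted p = 0.103) and passed there without KOSR/LIF replicate 3 (4.79, adjusted p = 0.0224). Of 14 measured fibroblast markers, 7 were lower in 2i/LIF in both of its comparisons and none higher, and their summed level was 2.85 to 4.69 in 2i/LIF, 17.1 to 24.5 in KOSR/LIF and 8.62 to 24.1 in serum/LIF. Of 11 measured trophoblast markers, 1 rose and 3 fell (5 without 2i/LIF replicate 2) in 2i/LIF against serum/LIF, and their summed level was 20.0 to 24.1 in 2i/LIF, 17.0 to 35.5 in KOSR/LIF and 85.0 to 163 in serum/LIF. Krt18, another keratin gene, made up 60.8 to 139 of the serum/LIF sums, and the other 10 markers summed to 18.5 to 21.2 in 2i/LIF, 12.7 to 18.4 in KOSR/LIF and 24.2 to 36.5 in serum/LIF. The part of these cell types in the differences of Lamb1, Hspg2, Lamb2 and Nid1 was not tested.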

How the data were processed

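The deposited scanner files hold processed intensities of Agilent one-colour arrays (Cy3), background-subtracted on a linear scale, together with background flags. Per the file headers, the scans were read with version 11.0.1.1 of Feature Extraction, the scanner maker's program. RNA came from Qiagen RNeasy kits, per the labels' protocols. The deposited value table holds intensities on a linear scale, and no source used here says how the authors made it. It served as an alternative (r of 0.917 to 0.995 with the log2 scanner intensities).

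Groups and replicate numbers came from the titles. Control spots and outlier spots were left out, spots of a probe were averaged, and 27656 of the 29123 probes that carry a RefSeq accession got a symbol from RefSeq's gene table (GRCm38.p6, for names only, since the probe design is on mm9). Log2 intensities were scaled to each array's 75th percentile. A probe entered if well above background on at least 3 of 11 arrays, and the probe with the highest mean stood for the gene. One linear model (lmFit and eBayes, limma 3.58.1, R 4.3.3; median SD 0.44) over all 11 arrays gave the 3 comparisons, two-sided, adjusted by Benjamini-Hochberg over 16279 genes, or over 21274 probes in the fit by probe, with a threshold of 0.05. A fold to a medium whose arrays all failed the background flag is a bound: the dimmer mean takes, per array, the higher of the probe's signal and the lowest signal well above background. The fits were tested on simulated data, and the number of arrays limits the precision. In each comparison 100 of its 16279 genes had a true log2 change of 1 and 100 had one of 2. The data had 2722, 745 and 2388 called genes, in the order of the comparisons above. A true log2 change of 1 was called in 9%, 2% and 3% of the genes given it, in the same order. A true log2 change of 2 was called in 67%, 54% and 72%. The share called with as many changed genes as in the data was not tested. A member that did not pass may still differ.

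Named genes are all members, up to 2 called genes of each other list in each direction with the largest change, and a few receptors and endoderm regulators. Members and lists were chosen with earlier results of these data known, and some genes of the lists are not reported here. Same-numbered arrays of different media did not deviate together (r of -0.20 to 0.18 over 9 pairs), so numbers do not pair them. The normexp alternative used median spot signals, since the files read here gave no mean signal. Alternatives covered background correction, normalization, the value table, the dim-probe filter, probe choice, slide, scan day, line, replicate block and left-out arrays.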

Additional observations from a re-analysis of the deposited data

How the results depend on the processing

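The 10 members were recomputed under 26 alternatives in 2i/LIF against serum/LIF and in KOSR/LIF against serum/LIF, and under 25 in 2i/LIF against KOSR/LIF. Direction and side of the threshold held in 245 of 260, 249 of 260 and 230 of 250 values. The alternatives share arrays, and many of these values are of members not called in either fit. Of the 10 members, 5, 7 and 5 held both under every alternative. The number of members called stayed within 2 to 3 over left-out arrays in both comparisons of 2i/LIF. It was 1, or 2 by probe, in 2i/LIF against serum/LIF within the third scan day, where the lone serum/LIF array is assumed to vary like the others, and 3 by probe in 2i/LIF against KOSR/LIF after normexp background correction. Besides the calls named above, that on Hspg2 was lost with the mean of its probes (-1.24, adjusted p = 0.105) and without 2i/LIF replicates 1 and 5 (-1.22, adjusted p = 0.0800), and that on Lamb2 after normexp (0.88, adjusted p = 0.0584), with slide as a block (0.65, adjusted p = 0.111), without 2i/LIF replicates 1 and 5 (1.09, adjusted p = 0.0652) and with only the arrays of these media (1.04, adjusted p = 0.0630). With a replicate block the call on Lamb2 was lost (0.94, adjusted p = 0.112), Sparc was at -0.0373 in 2i/LIF against KOSR/LIF, and 1929, 503 and 1408 genes were called in the 3 comparisons, against 2722, 745 and 2388 without the block. In KOSR/LIF against serum/LIF signs turned with the value table (Lama1 0.47, Lamc1 0.0103, Sparc 0.22), slide as a block (Lama1 0.62, Sparc 0.20), scan day as a block (Lama1 0.11) and within the first scan day (Lama1 0.62, Sparc 0.27). In 2i/LIF against KOSR/LIF they turned with the value table (Agrn -0.0916, Lama1 -0.34, Sparc -0.26, against the values reported), slide as a block (Lama1 -0.31, Sparc -0.37) and within the first scan day (Lama1 -0.31, Sparc -0.30), and Nanog was at -0.21 with the mean of probes. In 2i/LIF against serum/LIF Sparc was at 0.0127 with the mean of probes and 0.0610 with scan day as a block, Dag1 at 0.0855 with scan day as a block, and within the third scan day Lama1 was at -0.15 and Lama5 at 0.11. Over left-out arrays Lama1 ran from -0.97 to 0.44, Lamc1 from -0.39 to 0.0679, Sparc from -0.49 to 0.19 and Col4a1 from -0.12 to 1.31 in KOSR/LIF against serum/LIF. Lama1 ran from -0.30 to 1.12 and Sparc from -0.26 to 0.42 in 2i/LIF against KOSR/LIF, and Lama1 from -0.00109 to 0.32 and Sparc from -0.28 to 0.0671 in 2i/LIF against serum/LIF. Lama1 minus Lama5 ran from -0.11 to 1.34 in KOSR/LIF against serum/LIF and from -0.56 to 0.89 in 2i/LIF against KOSR/LIF. Lamb1 minus Lamb2 in KOSR/LIF against serum/LIF ran from -0.25 to 0.28, and was -0.38 after normexp. The cause of these changes was not tested.

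Over all genes, 1753, 371 and 1512 were called after normexp in the 3 comparisons, 1117 within the third scan day in 2i/LIF against serum/LIF, and in KOSR/LIF against serum/LIF 451 without the filter, 481 with line as a block in those media alone and 225 to 915 over left-out arrays (225 without serum/LIF replicate 1, 331 without serum/LIF replicate 2, 391 without serum/LIF replicate 3, 395 without KOSR/LIF replicate 1 and 386 without KOSR/LIF replicate 2). Counts in 2i/LIF against serum/LIF ran over the alternatives from 1 to 3 lower among other laminin chains, 2 to 4 among collagen IV chains, 3 to 7 among matrix glycoproteins, 3 to 8 among receptors, 3 to 7 among proteases and inhibitors, 4 to 9 among endoderm markers and 5 to 11 among fibroblast markers. Endoderm markers lower in 2i/LIF than in KOSR/LIF ran from 8 to 15. KOSR/LIF replicate 3 had the lowest signal over background and, left out, it turned the sign of Lama1, Lamc1 and Sparc in KOSR/LIF against serum/LIF.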

Other observations

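Of 10 ES cell markers, none rose and 3 fell in 2i/LIF against serum/LIF, among them the RNA-binding protein gene Lin28a (-3.01 ± 0.54) and the chromatin protein gene Utf1 (-2.83 ± 0.46). Sox2 was the 1 that fell in KOSR/LIF against serum/LIF (-1.35 ± 0.25), a call lost in 5 of 26 alternatives, among them those without serum/LIF replicate 1 and without serum/LIF replicate 3. Against KOSR/LIF, 3 were higher in 2i/LIF, among them the transcription factor genes Nanog (1.81 ± 0.41) and Esrrb (0.90 ± 0.23), and 2 lower, and without KOSR/LIF replicate 3, or without 2i/LIF replicate 4, 1 was higher. Nanog was at 1.14 without KOSR/LIF replicate 3.

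Genes of heparan sulfate synthesis build the side chains of perlecan and agrin. Of 18 measured, 1 rose and 3 fell in 2i/LIF against serum/LIF, beside 6.74% and 9.98% of all genes. The sulfotransferase gene Hs6st2 had the largest change (-3.92 ± 0.24, well above background on 2 of 5 arrays of 2i/LIF), Extl2 was lower (-1.11 ± 0.25) and B4galt7, which adds to the linker of the chain, was higher (0.73 ± 0.19, a call lost in 7 of 26 alternatives). Hs6st2 was also the 1 of 18 that fell in 2i/LIF against KOSR/LIF (-2.64 ± 0.24) and in KOSR/LIF against serum/LIF (-1.28 ± 0.26, lost in 10 of 26 alternatives).

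Of 13 measured genes of matrix secretion and folding, 1 fell in 2i/LIF against serum/LIF, beside 9.98% of all genes. It was the collagen prolyl hydroxylase gene P4ha2 (-1.69 ± 0.41), a call lost in 3 of 26 alternatives, among them that without serum/LIF replicate 3. None of the 13 passed in KOSR/LIF against serum/LIF. In 2i/LIF against KOSR/LIF P4ha2 (-2.45 ± 0.41) and Serpinh1, a collagen chaperone (-1.10 ± 0.27), were lower and the coat protein gene Sec23a was higher (0.90 ± 0.25), a call lost in 14 of 25 alternatives, among them that without KOSR/LIF replicate 3 (0.70, adjusted p = 0.109).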
